A study of Mus musculus with 6 samples.

Results

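Heterotrimeric G proteins carry signals from cell-surface receptors into the cell. Each consists of an alpha subunit, which binds the guanine nucleotide, and a beta subunit held tightly to a small gamma subunit. The beta-gamma dimer is released from the alpha subunit on activation and acts on its own targets, among them phospholipase C-beta enzymes, phosphoinositide 3-kinases and receptor kinases. A lipid attached to the end of the gamma subunit anchors the dimer in the membrane, and a beta subunit of the classical kind is unstable without a gamma partner. The genes described here are 10 of these subunits, the gamma genes Gng2, Gng4, Gng5, Gng10, Gng11 and Gng12 and the beta genes Gnb1, Gnb2, Gnb4 and Gnb5, out of 55291 gene symbols in the deposited table. All 10 were found by their symbols. They are a family set around Gng2, which was chosen by its log2 change and adjusted p in these same libraries, where its mRNA was lower in the knockout. The question was whether other gamma subunits made up for it. The differences between the groups in these 10 genes are therefore given as a description, without a test. Where Gng2 is said to pass the threshold over all genes, this restates its choice.

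The libraries come from LLC (Lewis lung carcinoma), a cancer line from mouse lung, grown in culture without treatment. The Calr KO group (n = 3 libraries) had received Cas9 and a guide RNA against Calr, the gene of calreticulin, a calcium-binding chaperone of the endoplasmic reticulum. The control group (n = 3 libraries), labelled wild type, had received Cas9 and a control guide. Both were kept for 10 days, seeded in separate wells and collected 48 hours later, so the replicates are wells of 1 edited and 1 control population. The spread given below is therefore between wells, and may be technical; it does not cover a repeat of the editing.

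The columns summed to between 14040692 and 14099985 normalised counts. Calr itself, the targeted gene, had 4467, 4216 and 4453 normalised counts in Calr KO cells and 10711, 10202 and 11047 in control cells, so transcript remained in every Calr KO library. The filament genes Vim, Krt8 and Krt18 were detected in all libraries, while Sftpc, Scgb1a1 and Nkx2-1 of lung epithelium and Cd3e and Adgre1 of leukocytes were listed at 0 in all of them. The test took in the 13199 genes whose average was 10 normalised counts or more. It was limma on log2(value + 1), and genes with a Benjamini-Hochberg adjusted p under 0.05 passed. They were 37, of which 26 were higher (0.197%) and 11 lower (0.0833%) in Calr KO cells.

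The gamma genes encode short proteins that carry the lipid at their carboxyl end. The coding sequence of Gng2, the gene the comparison turns on, is shown whole from the GENCODE M21 transcripts of GRCm38, 5′ to 3′, with the codon of the lipid-bearing cysteine in capitals. It has 216 bases.
Gng2: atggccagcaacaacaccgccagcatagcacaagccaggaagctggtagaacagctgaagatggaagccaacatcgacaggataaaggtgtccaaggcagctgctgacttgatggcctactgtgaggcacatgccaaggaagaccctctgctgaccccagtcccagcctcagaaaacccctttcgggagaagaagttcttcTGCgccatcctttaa

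The last 18 coding bases of the other gamma genes, stop codon included, are set out in the same way, to show which could carry the same lipid. The codon before the stop is the one that differs by class: it decides between a geranylgeranyl and a farnesyl group.
Gng4: ttcTGCaccatcctctaa
Gng5: gtcTGCtcctttttgtag
Gng10: tccTGTgctctactttga
Gng11: agcTGTgtcatttcataa
Gng12: accTGCatcatcttatag

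All 6 genes have a cysteine codon in the fourth place before the stop. Gng11 is known as the farnesylated member of this set and the other 5 as geranylgeranylated. Over the whole coding sequence Gng4 was the closest to Gng2, with 73.7% identical bases in a global alignment, followed by Gng12 with 71.3% and Gng10 with 61.6%. Gng5 had 56.0% and Gng11 53.8%. Among the beta genes, Gnb1, Gnb2 and Gnb4 were 75.8% to 77.2% identical to each other, while Gnb5, the divergent member, shared 53.4% to 54.6% with them.

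Gng2 mRNA was lower in all 3 Calr KO wells than in all 3 control wells. Gng2, which encodes a widely used gamma partner of Gnb1 and Gnb2, had 370.0, 319 and 378 normalised counts in Calr KO cells, against 577, 507 and 577 in control cells. The groups did not overlap, and well 2 was the lowest of its group on both sides. The means were 355 ± 32 in Calr KO cells against 554 ± 40.6 in controls (SD, n = 3 each), 1.56-fold lower, with a log2 change of -0.64 (SE 0.09). The gene (ENSMUSG00000043004.13, protein coding) lies on chromosome 14 (minus strand), from 19872559 to 19977627 in GRCm38. Gng2 was 1 of the 11 lower genes above, and it was chosen for that. In RNA from whole wells, fewer cells with the transcript and less of it per cell cannot be told apart. Among the 9 members tested it was the only one past the threshold, beside 0.28% of all tested genes and 0.0833% on the lower side. Nothing is read from that count, because the choice of Gng2 fixed it in advance. Gng2 no longer passed in any of the 6 fits that left out a library, nor with 1 variance prior for all genes. In those 6 fits its log2 change lay between -0.70 and -0.56.

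Part of Gng2 is shared with another transcript. The long non-coding RNA gene Gm48283 lies on the opposite strand and covers 897 exon bases of Gng2, 20.4% of them, and the sources used here do not say whether reads were counted by strand. Gm48283 had 29.2, 42.1 and 35.3 normalised counts in Calr KO cells and 37.9, 46.6 and 56.9 in control cells, with overlapping groups (log2 change -0.40, SE 0.24, limma adjusted p = 0.701). Its reads and those of Gng2 in that stretch cannot be told apart without strand. The pseudogene Gng2-ps1 was listed at 0 in all libraries.

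**Figure D1:**
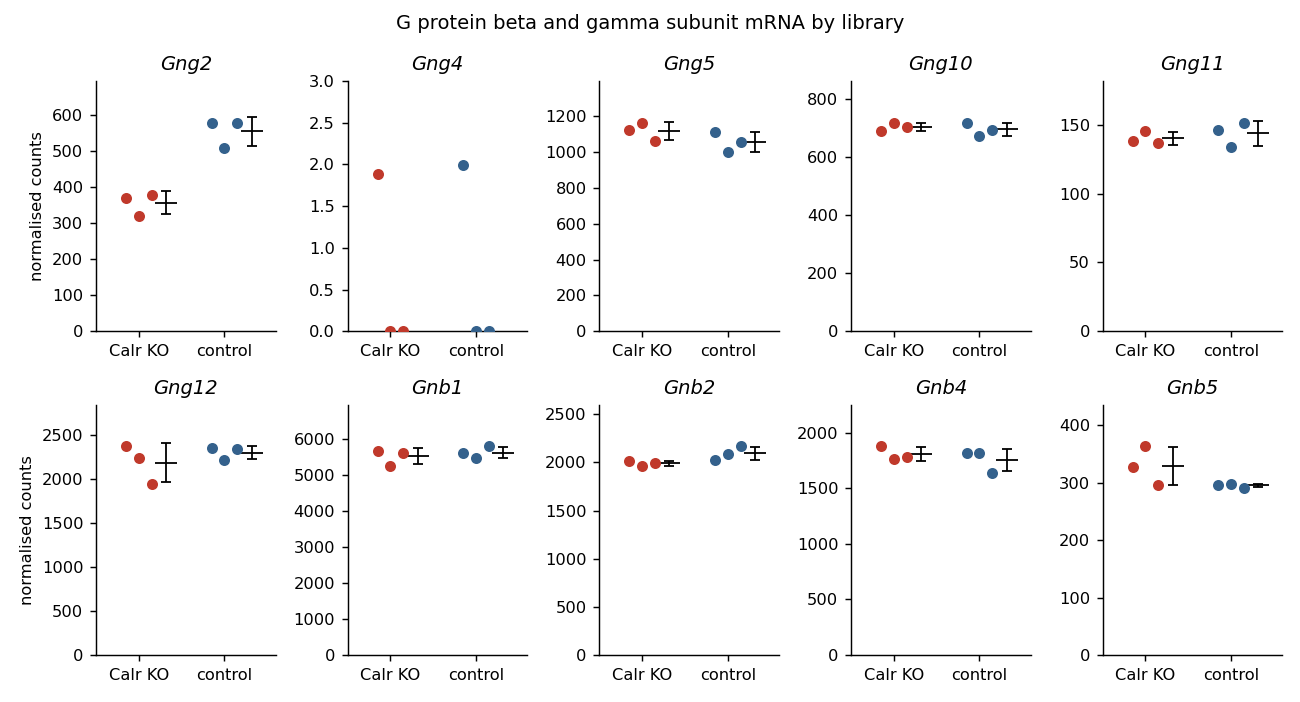
Normalised counts of each beta and gamma subunit gene in the 3 Calr KO libraries (red, left) and the 3 control libraries (blue, right), with the mean and SD beside the points except for Gng4. Every axis starts at 0. Gng2 lies between 319 and 378 in Calr KO and between 507 and 577 in control cells, while the points of the other genes, apart from Gnb2, mix between the groups.

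The other gamma genes lay close to their control values. Gng12, a broadly expressed gamma subunit, had 2371, 2243 and 1946 normalised counts in Calr KO cells, against 2354, 2211 and 2337 in control cells. Calr KO well 3 was the lowest of the 6 and well 1 the highest, so the groups overlapped. The log2 change was -0.08 (SE 0.07), between -0.14 and 0.0039 with 1 library left out, and its sign therefore depends on the libraries used.

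Gng5, a distant relative of Gng2 within the gamma family, had 1122, 1164 and 1063 normalised counts in Calr KO cells and 1113, 999 and 1058 in control cells. The 2 highest libraries were Calr KO wells and the lowest a control well, but the groups overlapped. The log2 change was 0.08 (SE 0.06), and it stayed positive with each library left out, between 0.04 and 0.12. The means differed by 5.70%. Gng5 also shares 9.39% of its 31-base words with other genes of the annotation. AC170998.1 holds the most, 5.73%, and has no level here, as its symbol was not found in the deposited table. The pseudogene Gng5-ps, also among them, was listed at 0 in all libraries.

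Gng10 had 690.3, 718 and 704 normalised counts in Calr KO cells, against 717, 673 and 694 in control cells. These are nearly equal means, 704 ± 13.7 and 695 ± 22 (SD, n = 3 each), with a log2 change of 0.02 (SE 0.06). Gng10 shares 72.0% of its exon bases with the overlapping gene Gm20503 on the same strand. That gene was listed at 0 in all libraries, and the values of Gng10 depend on how the authors' counting assigned the shared reads.

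Gng11, the farnesylated gamma subunit, had 138, 146 and 137 normalised counts in Calr KO cells and 147, 134 and 152 in control cells. The control wells spanned both the lowest and the highest value, and the log2 change was -0.04 (SE 0.12). For both Gng10 and Gng11 the sign turned with 1 library left out. Gng4, the closest relative of Gng2 by sequence and known mainly from the nervous system, was listed at 0 in 4 of the 6 libraries, with 1.89 normalised counts in Calr KO well 1 and 1.99 in control well 1. It did not reach the level for the test, and no fold is given.

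Of the members of the family outside the 10 genes, 0 of the 2 tested passed (limma adjusted p of at least 0.793). Gng7, best known from the striatum, was above 0 in every library, with 152 ± 17.2 normalised counts in Calr KO cells against 148 ± 24.5 in controls (SD, n = 3 each; log2 change 0.05, SE 0.16, limma adjusted p = 0.957). Gng3, a neuronal gamma subunit, had 45.2, 45.1 and 46.7 in Calr KO and 42.9, 31.1 and 42.5 in control cells. Its groups did not overlap, and the log2 change of 0.24 (SE 0.21) had a limma adjusted p of 0.793. Gng8 had 11.4 ± 1.93 and 8.49 ± 2.97 (Calr KO and control, SD, n = 3 each), just under the level for the test. Gngt2, Gng13 and Gnb3 stayed under 9 normalised counts in every library and the photoreceptor gamma gene Gngt1 was listed at 0 in all.

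To set the genes beside each other, counts were divided by the length of all exons of each gene, which gives normalised counts per kilobase. On that scale the order of the gamma genes was Gng10, Gng12, Gng5, Gng11, Gng2 and Gng4. Gng2 had 84.3, 72.6 and 86.0 per kilobase in Calr KO cells, against 132, 115 and 131 in control cells. Gng10 stood at 536 ± 10.4 and 529 ± 16.7, Gng12 at 463 ± 46.1 and 487 ± 16.5, Gng5 at 404 ± 18.4 and 382 ± 20.6, and Gng11 at 153 ± 5.26 and 157 ± 9.98 per kilobase (Calr KO and control, mean ± SD, n = 3 each). Over the 6 libraries the ranges of Gng12 and Gng5 overlapped, so their order is not resolved, while those of the other neighbours did not. The order also rests on the length used, since reads were summed per gene and the transcripts of 1 gene were not separated. Complete coding transcripts of Gng2 run from 393 to 3826 bases. With the shortest complete coding transcript of each gene Gng12 came first, with 47.6% of the summed gamma level in Calr KO and 46.3% in control cells. Gng2, with 13.4% in Calr KO and 19.3% in control cells, then stood above Gng10, with 8.77% and 7.97%.

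The summed level of the gamma subunits other than Gng2 was the same in both groups to within its spread. Their sum was 1584, 1600.3 and 1481 normalised counts per kilobase in Calr KO cells, against 1606, 1487 and 1570 in control cells. The means were 1555 ± 64.8 and 1554 ± 61.3 (Calr KO and control, SD, n = 3 each), a difference of 0.55 per kilobase with an SE of 51.5. Gng2 itself differed by -45.2 per kilobase (SE 6.80). The SE of the sum was thus larger than the missing Gng2, and on this scale a rise of that size in the others was not detectable with these 3 wells a group. With the shortest complete coding transcript Gng2 differed by -505 (SE 76.0) and the sum of the others by -62.6 (SE 262), both per kilobase. Without length correction the differences were -198 normalised counts (SE 29.9) for Gng2 and -48.4 (SE 177) for the others.

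Gene by gene the differences ran in both directions. Gng5 differed by 21.8 and Gng10 by 7.12 normalised counts per kilobase on the higher side in Calr KO cells, and Gng12 by -24.1 and Gng11 by -4.21 on the lower side. None of these 4 had groups that stood apart. The sum over all 6 gamma genes was 1636 ± 59.9 in Calr KO cells against 1680 ± 70.2 in controls (SD, n = 3 each), a difference of -44.6 (SE 53.3) with overlapping groups.

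**Figure D2:**
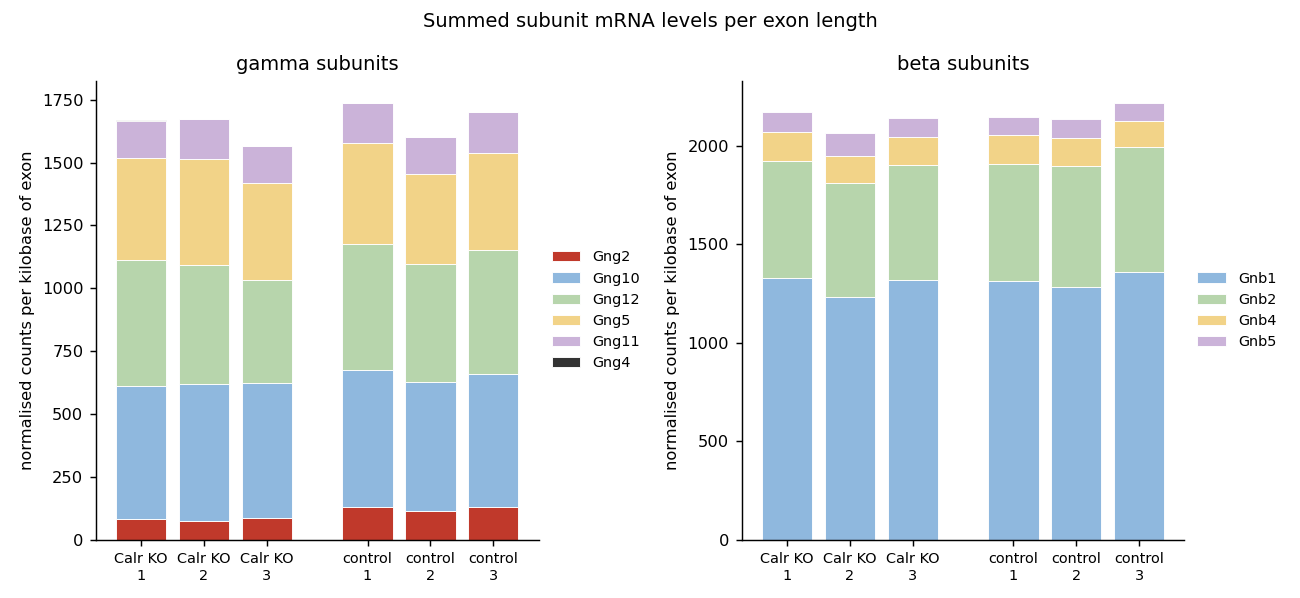
Normalised counts per kilobase of exon, stacked by gene, for the gamma subunits (left) and beta subunits (right) in each of the 3 Calr KO and 3 control libraries. Gng2 (red, at the base) is a thin layer of 72.6 to 86.0 in Calr KO and 115 to 132 in control cells, and the full gamma columns overlap between the groups. Gng4 is too low to be seen.

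Gng2 made up a small part of the gamma mRNA. Its share of the summed gamma level was 5.05%, 4.34% and 5.49% in Calr KO cells, against 7.57%, 7.21% and 7.72% in control cells, so the groups did not overlap. The share of Gng5 was 24.3%, 25.2% and 24.5% in Calr KO and 23.2%, 22.5% and 22.5% in control cells, also apart. A lower Gng2 raises the shares of the others by arithmetic, so shares were also taken without Gng2. Gng5 then had 25.6%, 26.3% and 26% of the remaining gamma level in Calr KO and 25.1%, 24.3% and 24.4% in control cells, still without overlap, while Gng10, Gng11 and Gng12 overlapped. The shares depend on the gene length used: with the shortest complete coding transcript of each gene, Gng2 had 13.4% ± 1.63 in Calr KO cells against 19.3% ± 0.59 in controls (SD, n = 3 each).

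The beta genes differed by less between the groups than Gng2, which was chosen for its difference. Gnb1, a ubiquitous beta subunit, had 5672, 5263 and 5616 normalised counts in Calr KO cells and 5604, 5477 and 5796 in control cells. The groups overlapped, with a log2 change of -0.03 (SE 0.04). Gnb4, a close relative of Gnb1, had 1875, 1763 and 1777 in Calr KO and 1813, 1814 and 1636 in control cells, again overlapping, with a log2 change of 0.04 (SE 0.06). The signs of both turned with 1 library left out.

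Gnb2, another widely expressed beta subunit, had 2010.0, 1960.4 and 1998 normalised counts in Calr KO cells, against 2030.1, 2085 and 2167 in control cells. All 3 Calr KO values were lower, but the highest Calr KO and the lowest control library lay close together, and the means differed by -4.99%. The log2 change was -0.07 (SE 0.04). Gnb2 and Gng2 were the 2 of 9 tested members whose groups did not overlap, beside 14.8% of all tested genes and 7.28% on the lower side, and nothing is read from that count because the choice of the members rests on this contrast.

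Gnb5, which pairs with RGS proteins of the R7 class in place of a gamma subunit, had 328, 363 and 297 normalised counts in Calr KO cells and 297, 298 and 292 in control cells. The 2 highest libraries were Calr KO wells 1 and 2, and well 3 lay within the control range. The log2 change of 0.15 (SE 0.10) was the largest in size among the tested members other than Gng2, and it lay between 0.08 and 0.22 with 1 library left out. Over the 8 tested members other than Gng2 the median size of the log2 change was 0.06, beside 0.09 over all tested genes. The background was not matched for expression level, on which the spread of log2 changes depends, so nothing is read from this difference.

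**Figure D3:**
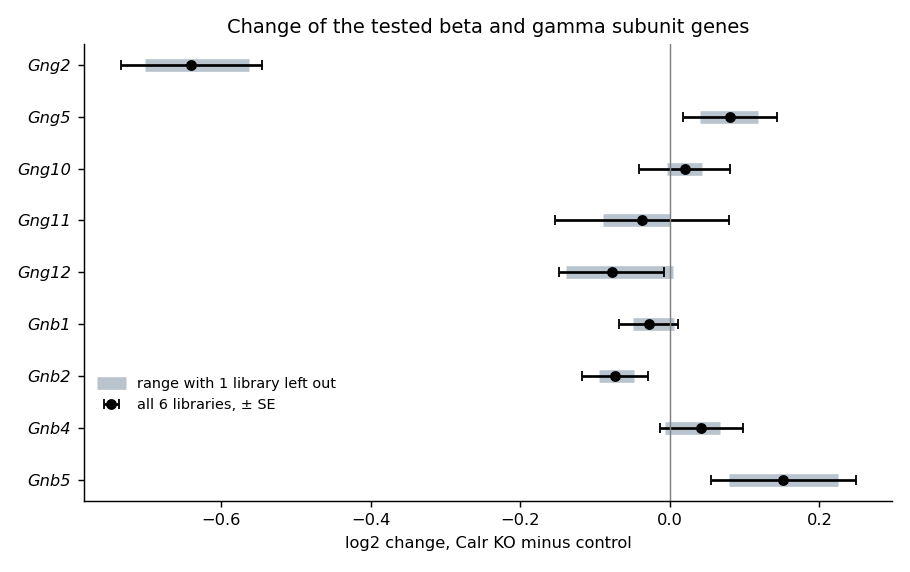
Log2 change (Calr KO minus control, on the log2(value + 1) scale) of the 9 tested beta and gamma subunit genes. Points and bars give the value with all 6 libraries and its SE, and grey bands the range with 1 library left out. Gng2 stands at -0.64 and the other 8 between -0.08 and 0.15.

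Per kilobase the order of the beta genes was Gnb1, Gnb2, Gnb4 and Gnb5, with no overlap between neighbours over the 6 libraries. This order rests on the exon lengths too: with the shortest complete coding transcript of each gene Gnb4 came first, with 47.2% of the summed beta level in Calr KO cells and 45.8% in control cells, and Gnb1 came after Gnb2, with 21.5% in Calr KO and 21.9% in control cells. The summed beta level was 2173, 2065 and 2138 normalised counts per kilobase in Calr KO cells and 2148, 2135 and 2217 in control cells, a difference of -41.2 (SE 41.0) with overlapping groups. With exon lengths Gnb1 gave 60.8% ± 0.96 of it in Calr KO cells against 60.8% ± 0.62 in controls (SD, n = 3 each). The ratio of summed beta to summed gamma mRNA was 1.30 ± 0.07 in Calr KO cells against 1.29 ± 0.05 in controls. With the length of the longest transcript in place of all exons it was 1.81 ± 0.09 and 1.80 ± 0.07 (Calr KO and control, SD, n = 3 each). Without length correction it was 2.15 ± 0.13 and 2.06 ± 0.08. The ratio in Calr KO cells minus that in controls was 0.01 (SE 0.05) with all exons, 0.09 (SE 0.09) without length correction and 0.10 (SE 0.05) with the shortest complete coding transcript. Both the ratio and the difference between the groups thus moved with the lengths, and the groups overlapped with each of them.

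The genes most like Gng2 across the libraries were found by the Pearson correlation of log2 values over the 6 libraries, among 10294 named genes with a mean of at least 50. They were Trim54 (r = 0.999), Pcyt2 (0.994), Cfl2 (0.993), Trappc3 (0.991) and Ptgs1 (0.986). Trim54, a muscle-type ring finger gene, had 82.0, 69.8 and 81.9 normalised counts in Calr KO cells and 119, 106 and 117 in control cells, so that both its lower group and its lower well 2 matched those of Gng2. The points of these correlations share libraries and groups, so they are a description of these 6 libraries. Among the members the correlation with Gng2 was 0.81 for Gnb2 and -0.80 for Gnb5, and for the other 6 tested it lay between -0.54 and 0.57.

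Around the dimer, 147 genes were listed by role, and of the 78 tested 0 passed in either direction (limma, adjusted over all tested genes), beside 0.28% of all tested genes. Before adjustment 9 of them had a p under 0.05, as had 8.88% of all tested genes. Their median log2 change was -0.02, beside 0.0004 over all tested genes, and the groups did not overlap in 17 of them, 5 higher and 12 lower. That is 21.8%, beside 14.8% of all tested genes, 7.57% higher and 7.28% lower. Nothing is read from this count, as the lists were chosen with earlier results of these data known.

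The alpha subunits bind the dimer at rest. Of 16 listed genes 11 were tested and 0 passed, with a median log2 change of 0.01 and a smallest limma adjusted p of 0.233. The groups did not overlap in 3 of the 11, 1 higher and 2 lower. This was 27.3%, beside 14.8% of all tested genes. Gnas, the alpha subunit that stimulates adenylyl cyclase, had 9043 ± 93.2 normalised counts in Calr KO cells against 9052 ± 243 in controls (SD, n = 3 each; limma adjusted p = 0.995). Gnai2, an inhibitory alpha subunit, had 5976 ± 51.6 and 5912 ± 104 (Calr KO and control, limma adjusted p = 0.919).

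The dimer is assembled by the CCT chaperonin with the phosducin-like co-chaperone Pdcl, and Ric8a and Ric8b chaperone alpha subunits. Of 12 tested genes of this kind 0 passed, with a median log2 change of 0.01. Cct2 had 11833 ± 268 normalised counts in Calr KO cells against 12461 ± 159 in controls (log2 change -0.07, SE 0.03, limma adjusted p = 0.465), and Cct3 had 8399 ± 189 and 8340 ± 353 (limma adjusted p = 0.958). Of the 6 prenylation and CaaX processing enzymes, which attach the lipid and trim the end of the gamma subunit, all were tested and 0 passed, with a median of -0.08. Icmt, which methylates the lipidated end, had 2157 ± 40.5 and 2271 ± 37.4 normalised counts (Calr KO and control, limma adjusted p = 0.655), and the protease Zmpste24 had 1316 ± 92.6 and 1272 ± 15.3 (limma adjusted p = 0.871).

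Among targets of the dimer, 11 of 25 listed genes were tested and 0 passed, with a median log2 change of -0.05. Plcb3, a phospholipase C-beta activated by the dimer, had 1762 ± 23.9 normalised counts in Calr KO cells against 1764 ± 95 in controls (SD, n = 3 each; limma adjusted p = 0.999). Grk2, the receptor kinase recruited to the membrane by the dimer, had 1171 ± 7.84 and 1210.1 ± 76.3 (Calr KO and control, limma adjusted p = 0.867). Of 5 tested genes among the other receptor kinases and arrestins 0 passed, with a median of -0.11. All 5 had a negative log2 change, among them Grk6 at -0.08 (limma adjusted p = 0.647) and Arrb2, the beta-arrestin 2 gene, at -0.23 (limma adjusted p = 0.476).

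RGS proteins speed the return of alpha subunits to the inactive state. Of 25 listed genes of RGS proteins and their R7 partners 12 were tested and 0 passed, with a median log2 change of -0.09. Of the R7 class, which binds Gnb5, Rgs6 and Rgs7 were listed at 0 in all libraries, and Rgs11, named for that role, had 280, 361 and 220.1 normalised counts in Calr KO cells and 259, 323 and 383 in control cells (limma adjusted p = 0.844). Rgs9, the other R7 gene tested, had 18.7, 12.4 and 17.1 in Calr KO cells and 11.4, 32.9 and 30.2 in control cells (log2 change -0.49, SE 0.42, limma adjusted p = 0.793). The groups overlapped in both genes. The 2 with the highest level, Rgs19 and Rgs16, changed by 0.02 and -0.13 (limma adjusted p of 0.962 and 0.757). Rgs2, named after its value was seen, had the lowest log2 change of the list, -1.04, with an SE of 0.41 (limma adjusted p = 0.513). Of 46 listed receptors 19 were tested and 0 passed, with a median of -0.01. The thrombin receptor F2r had 3187 ± 23.6 normalised counts in Calr KO cells against 3395 ± 68.3 in controls (limma adjusted p = 0.509), and the related F2rl1 had 794 ± 12.9 and 887 ± 63.5 (limma adjusted p = 0.545). In both the groups did not overlap.

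**Figure D4:**
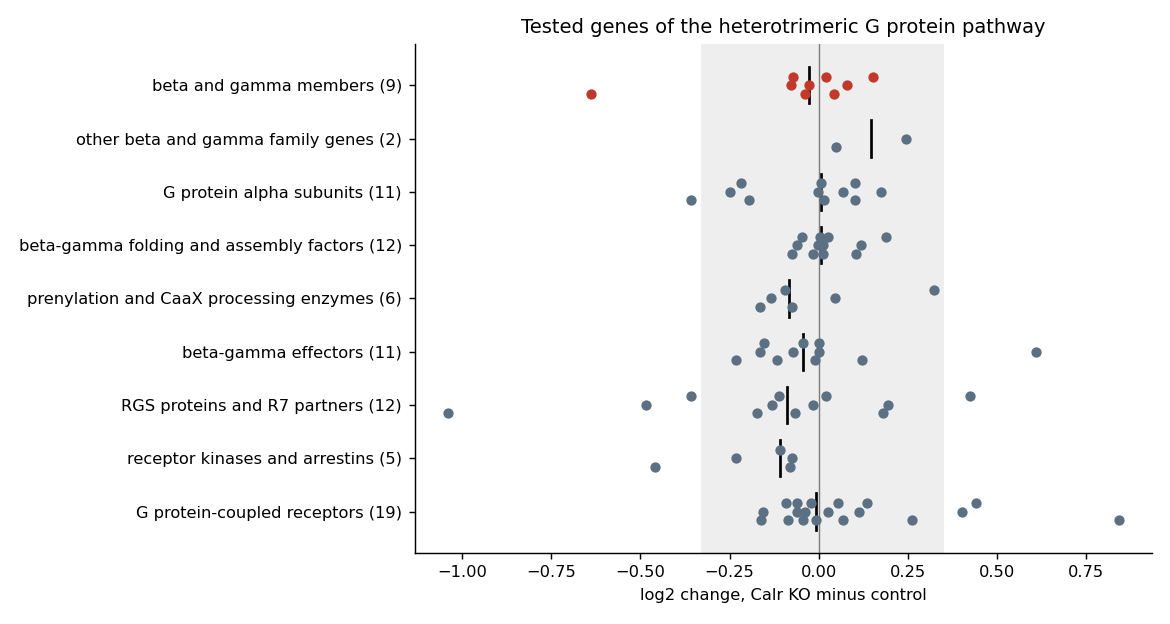
Log2 change (Calr KO minus control) of every tested gene in the beta and gamma set (red) and in 8 lists of related genes (grey), with the number tested in brackets and the median as a black line. The shaded band spans the 5th to 95th percentile of all tested genes, -0.33 to 0.35. Gng2, which was chosen for its change, lies left of the band. The other 8 members lie within it, as most tested genes do.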

How the data were processed

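The deposited values are a signal per gene symbol and library, DESeq2-normalised gene counts made by the authors, per the labels. Tools listed in the submitters' processing notes, with no role or order, are DESeq2 1.34.0, Salmon 0.14.1 and STAR 2.6.1d, with the build mm10; which annotation was used is not given there. In each library 3.44% to 4.14% of the values between 100 and 1000 were whole multiples (within 0.02) of the commonest low value, taken as the worth of 1 read, so whole reads were not recovered and no count model was run. The check thus does not bear out that value as the worth of 1 read. Sums divided by it, 13571131 to 14919040, are only a rough estimate of the reads per library.

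Genes with a mean of at least 10 were tested on the log2(value + 1) scale by limma 3.58.1 under R 4.3.3 (variance prior following the mean, two-sided, Benjamini-Hochberg over 13199 genes, threshold 0.05), which was tested on simulated data. Fold changes on this scale understate changes of low genes. Gene models, lengths and sequences are from GENCODE M21 (GRCm38), whose gene names include 53292 of the 55291 symbols. The members and lists were chosen with earlier results of these data known. Named were all members, Calr, family genes above 0, of each list the genes that passed or else the 2 of highest mean, and the 5 genes most correlated with Gng2. Outside this rule, the R7 genes Rgs6, Rgs7, Rgs9 and Rgs11 were named for their class, and Rgs2 after its value was seen. Cell type markers and genes that share bases with a member were also named. Alternatives were other pseudocounts, filters, scalings, variance priors, gene lengths, a replicate block and leaving out each library.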

Additional observations from a re-analysis of the deposited data

How the results depend on the processing

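The count of 37 genes over the whole table was 2 with 1 variance prior for all genes and between 20 and 34 with a library left out; without Calr KO replicate 1 it was 20, without Calr KO replicate 3 it was 21, and without control replicate 2 or control replicate 3 it was 22. In each of the 8 lists the count stayed at 0 in all 15 alternatives. The log2 change of Gng2 was negative in all 15, and nothing is read from that. Other filters, the variance prior and the replicate block cannot change this estimate. With the groups apart, leaving out 1 library cannot turn its sign. Gng2 passed the threshold in 8 of the 15. The replicate numbers did not pair the libraries: deviations of libraries with the same number correlated at -0.06, -0.01 and 0.0015, and a replicate block gave 26 genes over the whole table, with Gng2 at -0.64. The Gng2 share differed by -2.54 percentage points between Calr KO and control, by between -2.80 and -2.23 with a library left out, by -3.73 without length correction, and by -5.81 with the shortest complete coding transcript. With that transcript the log2 ratio of the summed gamma level was -0.12, against -0.04 with all exons; this length and the sum over all gamma genes of the family, where the ratio was -0.03, were chosen after seeing the data. Gng4 was too low for any fold. Low counts limit what can be said of Gng4 and of the other family genes that were not tested.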
